A study of Mus musculus with 32 samples.

Results

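The livers described here came from 8 aged male mice, 8 of the 32 libraries of a study of diet, age and sex in the mouse liver. They were chosen by their labels, male sex and a diet begun at 52 weeks of age, and every gene listed for the male libraries was examined. All mice were C57BL/6J, an inbred strain, with no further allele named. The 4 HFD mice received a high-fat diet with 60% of its energy from fat and the 4 LFD mice a matched low-fat control diet with 10%, both for 10 weeks. Each library was poly(A) RNA from the liver of 1 mouse. A further 8 males, 4 per diet, had begun the same diets at 7 weeks of age. They are called young males below and enter only the estimate of the spread and the comparison of ages. The question was which liver genes differed between the diets in aged males.

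The liver takes up, makes, burns and exports fat. When more fatty acid arrives than is oxidized or secreted, it is stored as triglyceride in cytoplasmic droplets, a state called steatosis. In rodents a fat-rich diet is known to raise genes of fatty acid oxidation through the lipid-sensing receptor PPARα, while carbohydrate raises genes of fatty acid synthesis through SREBP-1c and ChREBP. Prolonged steatosis can be accompanied by inflammation, by matrix deposition from hepatic stellate cells, and by hepatocyte death and division.

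Counts assigned to genes came to between 40229223 and 50075141 per library, and the TMM scaling factors, which correct for composition, lay between 0.931 and 1.15. Albumin (71048 to 87694 CPM on the LFD and 52166 to 78084 CPM on the HFD) was high in every library, as the label liver implies. Values are TMM-scaled CPM, counts of a gene scaled to a common library size. They are listed for the LFD mice in the order M7.1, M7.2, M9.1 and M9.2. For the HFD mice the order is M6.1, M6.3, M8.1 and M8.2. The labels write M6.3 and M8.1 as M6.3(2) and M8.1 (2). The meaning of the first number of a name, and of the mark (2), was not stated by the labels or the methods. The HFD livers did not form one tight group. On the first leading dimension of the 500 most different genes, which held 48.8% of the variance, the LFD livers lay between -1.24 and -0.47, M6.1 and M6.3 at 0.24 and 0.55, and M8.1 and M8.2 at 1.48 and 1.58. Leading log2 distances were 1.69 to 2.03 among LFD livers, 2.01 to 2.46 between LFD livers and the M6 pair, and 2.48 to 3.15 between LFD livers and the M8 pair. Among the HFD livers the distance was 1.57 between M8.1 and M8.2, 1.77 and 1.84 from M6.3 to these, 1.84 from M6.3 to M6.1, and 2.098 and 2.44 from M6.1 to M8.1 and M8.2. The M8 pair thus lay furthest from the LFD livers, and M6.3 was as near to that pair as to M6.1. Log2 fold changes without M8.1 and M8.2 are added below wherever leaving them out moved the value of a called gene by more than 1.5 times, and for some other genes.

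**Figure D1:**
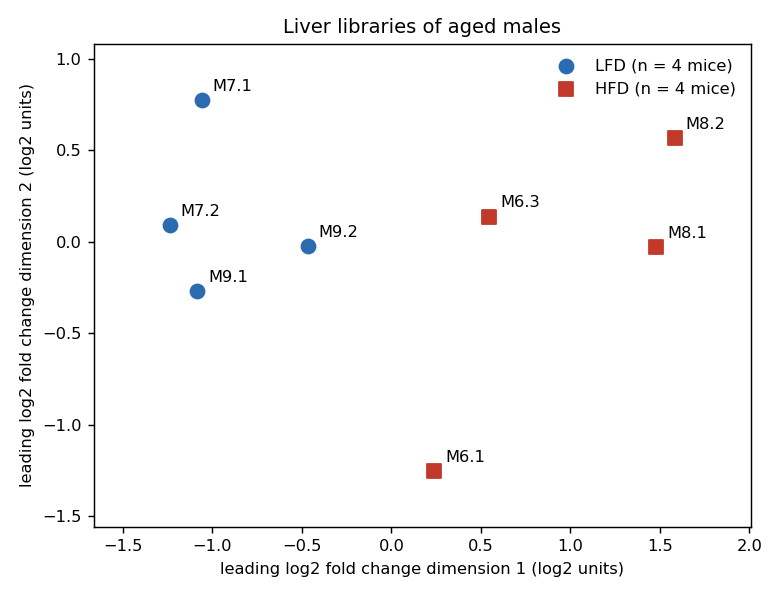
Leading log2 fold change dimensions of the 8 aged male liver libraries, in log2 units on both axes, 1 point per mouse. The 4 LFD livers (blue circles) lie to the left, M6.1 and M6.3 near 0.24 and 0.55, and M8.1 and M8.2 to the right at 1.48 and 1.58.

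A total of 1640 of 16077 genes tested (10.2%) passed an edgeR adjusted p of 0.05. Of these, 995 genes (6.19% of those tested) were higher and 645 (4.01%) lower on the HFD. The higher genes moved further: their median log2 fold change was 1.07, and 524 of them exceeded 2-fold and 148 exceeded 4-fold. Among the lower genes the median was -0.50, with 129 past 2-fold and 26 past 4-fold. The median over all genes tested was -0.0040. In 835 of the 995 higher genes all 4 HFD livers lay above all 4 LFD livers, and in 560 of the 645 lower genes all 4 lay below. Over every gene tested the HFD livers lay wholly above in 9.1% and wholly below in 8.03%. Without M8.1 and M8.2 the sign was the same in 991 of the 995 higher and in all 645 lower genes, and the medians were 0.76 and -0.40. The other 4 higher genes, Apln, Gm13056, Gm19744 and Sh2d1b1, which are named after their values were seen, had too few counts in the remaining libraries to be tested. Only Ifit1 and Ddx60 then passed the adjusted threshold, although 819 of the higher and 491 of the lower genes kept an unadjusted p under 0.05. The remaining libraries also served to call these genes. Kept signs, low unadjusted p-values and separated groups therefore follow in part from the calls and are no independent evidence. The number of calls also depended on the LFD livers, with 195 genes called without M7.1 and M7.2 and 1255 without M9.1 and M9.2. Leaving out M6.1 and M6.3 gave 2565.

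The largest increases among genes with separated groups included several that were near 0 in the LFD livers. Sprr1a, an epithelial cornified-envelope protein, was counted at 0.0607, 0, 0.124 and 0 CPM on the LFD and 0.943, 2.35, 8.802 and 8.61 CPM on the HFD (log2 fold change 6.78, SE 1.52, edgeR adjusted p = 0.016). No fold is given for it because 2 LFD libraries held no read. Ly6d, a small surface protein of lymphoid and epithelial cells, was at 0.708, 0.296, 0.149 and 1.32 CPM and 3.87, 7.61, 22.4 and 33.2 CPM (log2 fold change 4.74, SE 1.14, edgeR adjusted p = 0.021). Each gene was highest in the M8 pair, and the log2 fold changes without that pair were 5.14 and 3.21. Ttc39a rose 22.1-fold, from 0.324, 0.137, 0.173 and 0.259 CPM to 1.93, 2.75, 7.78 and 7.68 CPM (log2 fold change 4.47, SE 0.79, edgeR adjusted p = 0.0066). Themis, best known for its role in T cell development, rose 13.5-fold, from 0.911, 1.89, 1.36 and 1.53 CPM to 10.95, 19.7, 23.95 and 22.3 CPM (log2 fold change 3.76, SE 0.58, edgeR adjusted p = 0.0043), and its log2 fold change was 3.44 without the M8 pair. The T and natural killer cell markers gave a different picture, with 0 of 18 called and a summed level of 7.71 to 12.7 CPM in the LFD mice and 4.51 to 12.2 CPM in the HFD mice. Ubd, a ubiquitin-like modifier induced by inflammatory cytokines, measured 0.304, 0.342, 0.595 and 0.259 CPM on the LFD and 1.63, 2.997, 7.05 and 10.2 CPM on the HFD (log2 fold change 3.88, SE 0.77, edgeR adjusted p = 0.01). The range within the HFD mice was wide for Ubd and also for Ephb2, a receptor for membrane-bound ephrins, at 0.989, 1.92, 5.09 and 11.8 CPM against 0.263, 0.479, 0.768 and 0.755 CPM (log2 fold change 3.13, SE 0.75, edgeR adjusted p = 0.021; 1.38 without the M8 pair). Cbr3, a carbonyl reductase, and Fam83a had log2 fold changes of 3.14 and 2.93, or 1.87 and 1.78 without the M8 pair.

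Among the genes that fell furthest, Adgrf1, an adhesion G-protein-coupled receptor, was at 12.1, 19.7, 15.7 and 2.695 CPM on the LFD and 1.27, 0.729, 0.196 and 0.192 CPM on the HFD (log2 fold change -4.44, SE 0.89, edgeR adjusted p = 0.011). M9.2 was the lowest LFD liver and still lay above all HFD livers. Igfbp2, a circulating carrier of insulin-like growth factors, fell from 239, 327, 222 and 164 CPM to 119, 69.8, 43.7 and 42.9 CPM (log2 fold change -1.79, SE 0.39, edgeR adjusted p = 0.015). Slc2a4, the insulin-regulated glucose transporter GLUT4, was at 1.78, 5.57, 2.11 and 3.13 CPM and 0.805, 0.526, 0.864 and 0.821 CPM (log2 fold change -2.05, SE 0.44, edgeR adjusted p = 0.013). For Igfbp2 the M8 pair was the lowest, whereas the Slc2a4 values of the 4 HFD mice lay close together and the log2 fold change without the M8 pair was -2.23. Acmsd, which diverts tryptophan breakdown away from NAD synthesis, fell 3.49-fold (15.9 to 36.8 CPM on the LFD and 5.71 to 8.95 CPM on the HFD). Grm8 (log2 fold change -2.300), Srgap3 (-2.15), Cabyr (-2.06), Cnmd (-1.902) and Lrp2 (-1.85) were also among the 15 largest decreases. None of these 5 reversed without the M8 pair, where the log2 fold changes lay at -1.67, -1.71, -1.85, -1.43 and -1.64.

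**Figure D2:**
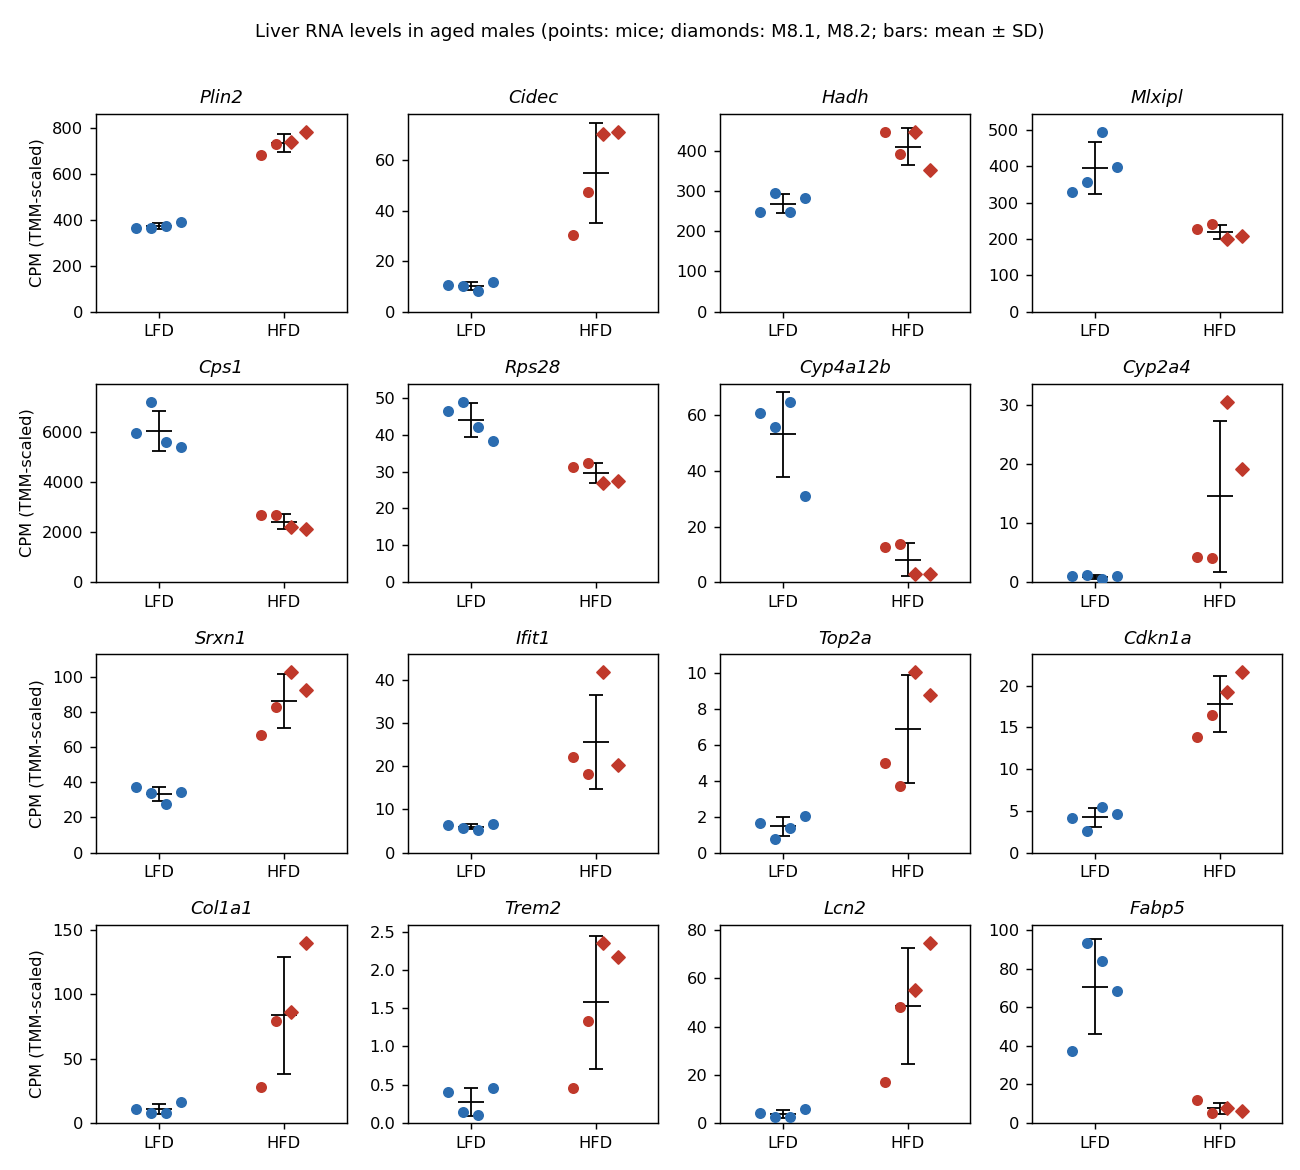
TMM-scaled CPM of 16 named genes in the liver of each aged male (vertical axes, linear and starting at 0; LFD blue, HFD red, diamonds M8.1 and M8.2; bars are the mean ± SD, n = 4 mice). Plin2 lies between 364 and 389 CPM in the LFD mice and between 683 and 783 CPM in the HFD mice, while Col1a1, Cyp2a4 and Ifit1 spread more widely within the HFD group.

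Of 22 lipid droplet genes tested 4 rose and none fell. The HFD livers lay wholly above the LFD livers in 9, the median log2 fold change was 0.42 (0.39 without the M8 pair), and the summed level was 1882 to 2014 CPM in the LFD mice and 2667 to 2930.1 CPM in the HFD mice. Plin2 (chromosome 4, 86648386 to 86670060, minus strand, mm10), the main coat protein of hepatocyte droplets, was at 364, 366, 373 and 389 CPM on the LFD and 683, 729, 739 and 783 CPM on the HFD (log2 fold change 0.98, SE 0.18, edgeR adjusted p = 0.0071). It thus rose 1.97-fold with little spread within either group. Plin4, a coat protein abundant in fat cells, rose from 10.5, 12.6, 10.3 and 11.02 CPM to 44.2, 60.7, 56.5 and 97.5 CPM (log2 fold change 2.54, SE 0.45, edgeR adjusted p = 0.0068). Cidec, which drives the fusion of droplets into larger ones, was at 10.6, 10.1, 8.01 and 11.7 CPM and 30.4, 47.2, 70.2 and 71.2 CPM (log2 fold change 2.44, SE 0.71, edgeR adjusted p = 0.04). Hsd17b13, a droplet-bound retinol dehydrogenase, measured 324, 348, 284 and 348 CPM and 505, 383, 559 and 569.6 CPM (log2 fold change 0.63, SE 0.14, edgeR adjusted p = 0.017), with M6.3 the closest to the LFD livers. Cidea, a relative of Cidec, was not called: 3 HFD livers lay at 31.8 to 35.8 CPM, but M6.1 at 9.02 CPM was within the LFD range (9.695, 6.73, 7.73 and 13.4 CPM; edgeR adjusted p = 0.084). Fitm2, which helps droplets bud from the endoplasmic reticulum, missed the threshold narrowly (log2 fold change 0.43, edgeR adjusted p = 0.051). Pparg, a nuclear receptor that drives fat storage, rose from 8.36, 9.42, 11.995 and 13.2 CPM to 18.5, 26.7, 30.2 and 29.1 CPM (log2 fold change 1.28, SE 0.31, edgeR adjusted p = 0.02). Plin4, Cidec, Pparg and Fabp4 were the 4 of 13 adipocyte marker genes called. The defining fat cell markers Adipoq (0.202 to 1.21 CPM on the LFD and 0.118 to 2.49 CPM on the HFD) and Lep (0 to 1.01 CPM over the 8 livers) were near 0 and highest in M6.1 or M6.3, and the part of fat tissue in these values was not tested.

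Genes of fatty acid uptake moved in both directions, with 3 of 18 higher and 3 lower. Each share was 16.7%, against 6.19% higher and 4.01% lower over all genes. Fabp4, a fatty acid carrier of fat cells and macrophages, rose from 6.497, 5.702, 9.94 and 8.798 CPM to 17.7, 24.3, 18.2 and 21.4 CPM (log2 fold change 1.402, SE 0.29, edgeR adjusted p = 0.011). Its relative Fabp5 fell 9.25-fold, from 37.1, 93.4, 83.7 and 68.2 CPM to 11.7, 5.37, 7.49 and 6.01 CPM (log2 fold change -3.21, SE 0.43, edgeR adjusted p = 0.0039), and was -3.04 on the log2 scale without the M8 pair. The intestinal-type carrier Fabp2 rose from 92.1, 89.2, 66.9 and 85.2 CPM to 143, 123, 124 and 103 CPM (log2 fold change 0.56, SE 0.14, edgeR adjusted p = 0.023). The other called members were the hepatic lipase Lipc (log2 fold change -0.62), the fatty acid transport protein Slc27a1 (0.81) and the bile acid-CoA ligase Slc27a5 (-0.46), the last of which, like Slc27a1, was picked after the values were seen. Lipc and Slc27a5 were at -0.38 and -0.21 without the M8 pair. Lpl, the lipoprotein lipase, overlapped between diets at 14.6, 14.2, 27.9 and 30.3 CPM and 26.05, 39.5, 37.2 and 82.7 CPM (log2 fold change 1.09, edgeR adjusted p = 0.06). In triglyceride synthesis 2 of 23 genes rose (8.70%) and 1 fell (4.35%), near the shares over all genes (6.19% and 4.01%). Gpat3, which starts glycerolipid synthesis, rose 3.49-fold, from 3.198, 4.93, 3.098 and 4.701 CPM to 10.4, 9.598, 16.5 and 18.9 CPM (log2 fold change 1.802, SE 0.45, edgeR adjusted p = 0.023). Mogat1, a monoacylglycerol acyltransferase, rose 3.14-fold (1.44 to 3.17 CPM on the LFD and 4.74 to 9.55 CPM on the HFD). Pemt, which makes phosphatidylcholine by methylation, fell from 168, 187, 152 and 151 CPM to 121, 123, 119.8 and 101 CPM (log2 fold change -0.50, SE 0.09, edgeR adjusted p = 0.0079).

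Among fatty acid oxidation genes the calls were all increases, most of them under 2-fold. Of 21 mitochondrial oxidation genes 7 rose and none fell, and the HFD livers lay wholly above the LFD livers in 12. The median log2 fold change was 0.21, and 0.29 without the M8 pair. Cpt1a, which admits long-chain fatty acids to mitochondria, was at 541, 615, 403 and 389 CPM on the LFD and 857, 651, 725 and 673 CPM on the HFD (log2 fold change 0.58, SE 0.15, edgeR adjusted p = 0.03). Hadh, a dehydrogenase of the short-chain cycle, rose from 248, 296, 248 and 284 CPM to 448, 391.9, 446 and 353 CPM (log2 fold change 0.61, SE 0.13, edgeR adjusted p = 0.015). Acot2, a mitochondrial acyl-CoA thioesterase, rose more, from 2.81, 3.88, 3.395 and 4.66 CPM to 13.4, 6.93, 15.2 and 12.02 CPM (log2 fold change 1.69, SE 0.42, edgeR adjusted p = 0.023). Acadm, the medium-chain acyl-CoA dehydrogenase, was 300.2, 328, 277 and 287 CPM and 456, 391, 391 and 355 CPM (log2 fold change 0.42, SE 0.12, edgeR adjusted p = 0.041), and Decr1, an auxiliary enzyme for unsaturated fatty acids, differed by 0.42 on the log2 scale. In Cpt1a, Hadh and Acadm the highest HFD liver was M6.1, not one of the M8 pair. Of the 7 ketone body genes 3 rose. Among them Acat1 and Bdh1 had log2 fold changes of 0.43 and 0.51, and those without the M8 pair were slightly larger at 0.49 and 0.56. In peroxisomal and omega oxidation 3 of 23 genes rose (13.0%, against 6.19% of all genes). They were Hsd17b4, the bifunctional enzyme, from 471, 487, 448 and 452 CPM to 649.7, 621, 652 and 581 CPM (log2 fold change 0.43, SE 0.10, edgeR adjusted p = 0.02), the carnitine octanoyltransferase Crot (log2 fold change 0.63) and Pex11a, which promotes peroxisome division (0.73).

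Lipid synthesis genes varied widely from liver to liver, and few calls were made. The median log2 fold change of 18 genes of de novo fatty acid synthesis was -0.54 (-0.75 without the M8 pair). Of the 18, 1 was called, a decrease (5.56%, against 4.01% of all genes). That gene was Mlxipl, which encodes the carbohydrate-responsive factor ChREBP. It fell from 329.8, 358, 495 and 397 CPM to 227, 242, 200.3 and 209 CPM (log2 fold change -0.85, SE 0.13, edgeR adjusted p = 0.0045), with the 4 HFD livers close together. Scd1, which desaturates stearate and palmitate, was at 24754, 31376, 30349 and 35879 CPM on the LFD and 19461, 12749, 20339.9 and 11914 CPM on the HFD. All HFD livers lay below the LFD livers, yet the threshold was missed (log2 fold change -0.92, SE 0.29, edgeR adjusted p = 0.051). Fasn, the fatty acid synthase, overlapped at 1706, 3694, 2726 and 3958 CPM and 1834, 1122, 2996 and 1240.2 CPM (log2 fold change -0.75, edgeR adjusted p = 0.26). Acly, which supplies cytosolic acetyl-CoA, and Acaca, the committing carboxylase, gave log2 fold changes of -0.88 and -0.50 (edgeR adjusted p = 0.084 and 0.2). Elovl3 had -1.42 and Pnpla3 -1.97, also not called. Cholesterol synthesis was equally spread, with 1 of 26 genes called, a decrease (3.85%, against 4.01% of all genes). Hmgcs1, the first committed enzyme, ranged from 196 to 687 CPM on the LFD and from 438 to 1783 CPM on the HFD, with M6.1 the highest (log2 fold change 1.09, edgeR adjusted p = 0.072). Ebp, a sterol isomerase of the late pathway, fell (log2 fold change -0.55, edgeR adjusted p = 0.029; -0.31 without the M8 pair).

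More bile acid genes fell than rose. Of 23 tested, 6 fell (26.1%, against 4.01% of all genes) and 2 rose (8.70%, near the 6.19% of all genes). Abcb11, the canalicular bile salt export pump, fell from 961, 933, 1135 and 1117 CPM to 717, 637, 439.8 and 549.9 CPM (log2 fold change -0.82, SE 0.17, edgeR adjusted p = 0.011). Cyp2c70, which makes the mouse's muricholic acids, fell from 609, 599, 734 and 538 CPM to 300.5, 243, 176 and 203 CPM (log2 fold change -1.42, SE 0.32, edgeR adjusted p = 0.015). The phospholipid flippase Abcb4 rose instead, from 328, 283, 266 and 236 CPM to 461, 482, 441 and 475 CPM (log2 fold change 0.74, SE 0.11, edgeR adjusted p = 0.0043), and so did the basolateral exporter Abcc3, from 208, 235, 187 and 221 CPM to 428, 413, 497 and 411 CPM (log2 fold change 1.04, SE 0.21, edgeR adjusted p = 0.012). Without the M8 pair the log2 fold changes of Abcb4 and Abcc3 were 0.77 and 0.99, close to those with it. For Abcb11 and Cyp2c70 they were -0.60 and -1.18. Among 24 lipoprotein genes 1 rose and 1 fell (4.17% each, against 6.19% and 4.01% of all genes). Apoa4, an apolipoprotein of triglyceride-rich particles, rose 4.77-fold, from 508, 280.1, 329.9 and 797 CPM to 1702, 1593, 3012 and 2824 CPM (log2 fold change 2.25, SE 0.52, edgeR adjusted p = 0.018). Apom, which carries sphingosine 1-phosphate on HDL, fell from 154, 163, 140.2 and 113 CPM to 91.3, 81.1, 72.3 and 66.6 CPM (log2 fold change -0.87, SE 0.18, edgeR adjusted p = 0.011). In glucose and glycogen metabolism 2 of 28 genes rose (7.14%) and 3 fell (10.7%), against the same shares of all genes. Hk2, a hexokinase that adult hepatocytes express little of, was at 2.08, 1.46, 1.76 and 3.36 CPM and 2.35, 7.15, 14.99 and 17.2 CPM (log2 fold change 2.26, SE 0.67, edgeR adjusted p = 0.043), so that M6.1 stayed within the LFD range. Its log2 fold change was 1.15 without the M8 pair. Pkm, the pyruvate kinase of non-hepatocytes and dividing cells, had a similar order (12.9, 28.9, 35.6 and 42.4 CPM on the HFD; log2 fold change 0.95, edgeR adjusted p = 0.042; 0.44 without the M8 pair). G6pc, the last step of glucose release, fell from 324, 296, 600.1 and 505 CPM to 194, 321, 156 and 139 CPM (log2 fold change -1.09, SE 0.32, edgeR adjusted p = 0.044) and was picked after its values were seen. Slc2a4, described above, and Pygl, the liver glycogen phosphorylase (log2 fold change -0.28, edgeR adjusted p = 0.039), were the other decreases.

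Of 34 genes of amino acid catabolism 15 fell and none rose, the median log2 fold change was -0.40 (-0.26 without the M8 pair), and the summed level was 25834 to 33645 CPM in the LFD mice and 16318 to 24244 CPM in the HFD mice. Cps1, which commits ammonia to the urea cycle, was at 5939, 7189, 5606 and 5401 CPM on the LFD and 2676, 2663, 2182 and 2128 CPM on the HFD (log2 fold change -1.32, SE 0.23, edgeR adjusted p = 0.0058). It fell 2.502-fold, and the HFD livers lay within a narrow range. Ass1, the next cytosolic enzyme of the cycle, fell from 2811, 3959, 2698 and 2793 CPM to 1597, 1929.7, 1443 and 1371 CPM (log2 fold change -0.95, SE 0.18, edgeR adjusted p = 0.0095). Got1, the cytosolic aspartate aminotransferase, fell from 224, 385, 208 and 216 CPM to 146, 142, 119.9 and 90.5 CPM (log2 fold change -1.05, SE 0.21, edgeR adjusted p = 0.011), and Gls2, the liver glutaminase, from 285, 356, 258 and 256 CPM to 157, 240.2, 160.0 and 165 CPM (log2 fold change -0.68, SE 0.15, edgeR adjusted p = 0.015). All 4 genes were highest in M7.2. Ass1, Gls2, Arg1 (log2 fold change -0.55), Hal (-0.72) and Etnppl (-1.05), the last picked after its values were seen, were also the 5 of 10 periportal hepatocyte markers that fell. Hal and Etnppl were at -0.43 and -0.65 without the M8 pair. Of 10 pericentral markers none was called, with a median log2 fold change of 0.05. Of 9 general hepatocyte markers 3 fell, and their summed level was 95412 to 115298 CPM in the LFD mice and 66353 to 97294 CPM in the HFD mice. In bulk tissue a smaller share of a cell type and less of an RNA per cell cannot be told apart.

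Most ribosomal protein genes were lower in all 4 HFD livers. Of 79 cytoplasmic ribosomal protein genes 60 fell and none rose, and in 67 the HFD livers lay wholly below the LFD livers. The median log2 fold change was -0.40, and -0.35 without the M8 pair. Their summed level was 8343 to 10899 CPM in the LFD mice and 6833 to 7624 CPM in the HFD mice. Rps28 was at 46.5, 48.9, 42.2 and 38.4 CPM on the LFD and 31.2, 32.5, 26.98 and 27.6 CPM on the HFD (log2 fold change -0.57, SE 0.10, edgeR adjusted p = 0.0062). Rps26 and Rpl28 had log2 fold changes of -0.46 and -0.53. Many of these genes have processed pseudogenes in the mouse genome, and reads that mapped to several places were not counted, so their levels are uncertain. Of 76 nuclear genes for respiratory chain subunits 14 fell and none rose, with a median log2 fold change of -0.23 (-0.13 without the M8 pair). Ndufa6 of complex I fell from 86.7, 94.2, 77.6 and 83.6 CPM to 69.1, 65.99, 61.2 and 50.8 CPM (log2 fold change -0.47, SE 0.10, edgeR adjusted p = 0.015), and Atp5g1 of the ATP synthase from 72.4, 73.3, 63.7 and 64.9 CPM to 53.1, 54.9, 54.6 and 42.6 CPM (log2 fold change -0.42, SE 0.08, edgeR adjusted p = 0.011). Uqcrb of complex III and Cox5a of complex IV fell by 0.37 and 0.34 on the log2 scale, and Uqcrb was at -0.23 without the M8 pair. Of 13 mitochondrially encoded subunits mt-Co2 and mt-Co3 fell (-0.48 and -0.41 on the log2 scale), with mt-Co2 at 29.7 to 34.6 CPM on the LFD and 19.98 to 26.4 CPM on the HFD.

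**Figure D3:**
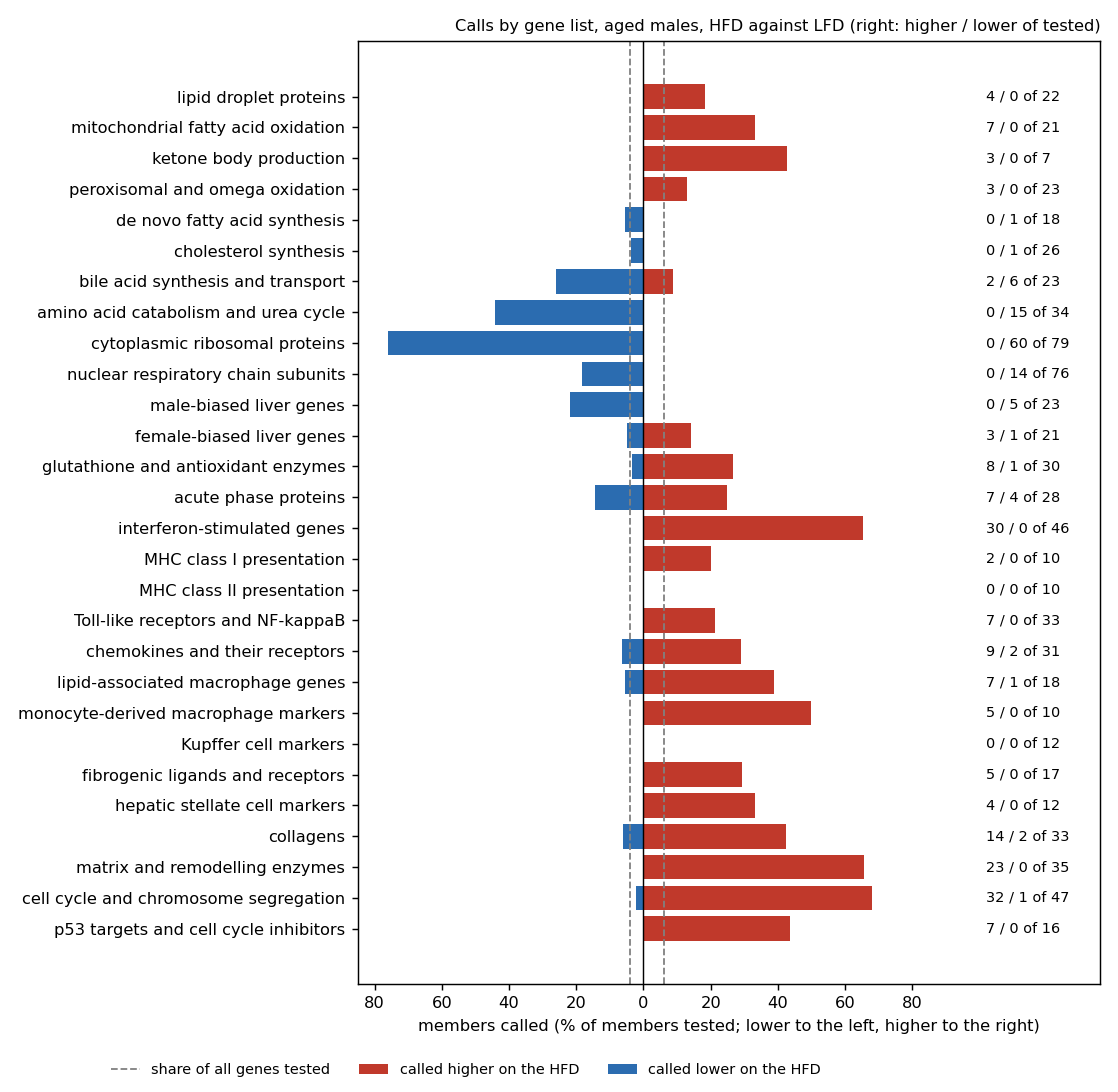
Share of the tested members of 28 gene lists called lower (blue, to the left) or higher (red, to the right) on the HFD in aged males, in percent of members tested. Dashed lines mark the shares over all genes, 4.01% lower and 6.19% higher, and the counts stand at the right, from 60 of 79 ribosomal protein genes lower to 32 of 47 cell cycle genes higher.

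Male-biased liver genes were lowest in the M8 pair. Growth hormone pulses keep a set of genes high in the male liver and another set low. Of 23 male-biased genes 5 fell and none rose, with a median log2 fold change of -1.18 (-0.69 without the M8 pair). Their summed level was 10852 to 19053 CPM in the LFD mice and 4327 to 10423 CPM in the HFD mice, and M9.2 was the lowest of the LFD livers. Cyp4a12b, a male-predominant fatty acid hydroxylase, was at 60.8, 55.7, 64.8 and 31.1 CPM on the LFD and 12.7, 13.9, 2.93 and 2.99 CPM on the HFD (log2 fold change -2.72, SE 0.76, edgeR adjusted p = 0.036). Its near-identical neighbour Cyp4a12a fell less (219.9, 321, 237 and 191 CPM to 172, 89.1, 168 and 63.2 CPM; log2 fold change -0.98, edgeR adjusted p = 0.048). Serpina1e, an α1-antitrypsin copy, fell from 3203, 2348, 3806 and 689 CPM to 308, 631, 57.4 and 161 CPM (log2 fold change -3.12, SE 0.96, edgeR adjusted p = 0.05). These 3 genes have close copies whose reads may be divided among them, and their values are uncertain. Ugt2b1, a glucuronosyltransferase, and Nat8, an acetyltransferase, completed the 5 decreases (-0.83 and -0.88), and Ugt2b1 was at -0.52 without the M8 pair. Hsd3b5, a male-specific steroid reductase picked after its values were seen, was at 211, 149, 309 and 71.8 CPM and 15.6, 16.7, 0.216 and 0.262 CPM. The M8 pair was near 0 and the group difference just missed the threshold (log2 fold change -4.51, SE 1.39, edgeR adjusted p = 0.05). Slc22a28, an organic anion transporter, fell from 20.02, 18.6, 26.3 and 10.95 CPM to 6.28, 7.51, 1.51 and 1.62 CPM (log2 fold change -2.17, SE 0.58, edgeR adjusted p = 0.029; -1.45 without the M8 pair). Of 21 female-biased genes 3 rose (14.3%) and 1 fell (4.76%), against 6.19% and 4.01% of all genes. The list median of 0.55 was 0.41 without the M8 pair. Cyp2b13 was at 0, 0.0684, 0 and 0.539 CPM and 1.38, 6.78, 17.4 and 10.8 CPM (log2 fold change 5.86, SE 1.35, edgeR adjusted p = 0.017), and Cyp2a4 at 0.972, 1.19, 0.471 and 1.08 CPM and 4.33, 4.03, 30.6 and 19.2 CPM (log2 fold change 3.96, SE 1.08, edgeR adjusted p = 0.032; 2.18 without the M8 pair). Slc22a27, a female-predominant anion transporter, rose from 1.903, 1.94, 2.03 and 6.77 CPM to 15.1, 16.3, 30.5 and 20.1 CPM (log2 fold change 2.69, SE 0.75, edgeR adjusted p = 0.035). The fourth, Cyp2c40, fell (log2 fold change -1.804, edgeR adjusted p = 0.011). The 3 cytochrome genes belong to families of close copies and are uncertain in the same way.

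Of 30 glutathione and antioxidant genes 8 rose (26.7%) and 1 fell (3.33%), against 6.19% and 4.01% of all genes. Srxn1, which restores oxidized peroxiredoxins, was at 37.2, 33.7, 27.9 and 34.8 CPM on the LFD and 67.01, 83.1, 103 and 92.8 CPM on the HFD (log2 fold change 1.37, SE 0.24, edgeR adjusted p = 0.006). Gpx4, the peroxidase of membrane lipids, rose from 112, 119.9, 96.4 and 103 CPM to 148, 163, 209.8 and 179 CPM (log2 fold change 0.70, SE 0.15, edgeR adjusted p = 0.015). Gsta1, a glutathione transferase with close copies, was at 0.344, 0.251, 0.273 and 0.604 CPM and 3.93, 4.54, 17.9 and 9.099 CPM (log2 fold change 4.57, SE 1.01, edgeR adjusted p = 0.015). Gss, the last enzyme of glutathione synthesis, rose (log2 fold change 0.74, edgeR adjusted p = 0.025), although M6.1 was below 1 LFD liver. The differences without the M8 pair were 1.18 for Srxn1, 0.54 for Gpx4, 3.52 for Gsta1 and 0.60 for Gss.

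Interferon-stimulated genes, which encode the antiviral state that type I interferons and some RNA or DNA sensors induce, were mostly higher on the HFD. Of 46 genes of the list 30 rose and none fell. The median log2 fold change was 0.97, and 0.57 without the M8 pair. In 26 genes all HFD livers lay above all LFD livers, and the summed level was 1076 to 1183 CPM in the LFD mice and 1367 to 1885 CPM in the HFD mice. Ifit1 (chromosome 19, 34640871 to 34650009, plus strand, mm10), which binds foreign 5′ RNA ends, was at 6.27, 5.702, 5.304 and 6.71 CPM on the LFD and 22.3, 18.2, 41.8 and 20.2 CPM on the HFD (log2 fold change 2.095, SE 0.25, edgeR adjusted p = 0.0024). Without the M8 pair its log2 fold change was 1.77 with an edgeR adjusted p of 0.012. Rsad2, the antiviral enzyme viperin, rose from 8.36, 5.702, 8.92 and 10.2 CPM to 22.9, 20.3, 32.6 and 24.3 CPM (log2 fold change 1.59, SE 0.22, edgeR adjusted p = 0.0039). Gbp3, a guanylate-binding protein with close copies nearby, rose from 6.92, 6.11, 6.42 and 5.67 CPM to 15.1, 14.2, 35.5 and 20.96 CPM (log2 fold change 1.77, SE 0.27, edgeR adjusted p = 0.0043). Dhx58, an RNA sensor of the RIG-I family, went from 12.04, 10.04, 8.92 and 9.62 CPM to 18.6, 17.96, 27.2 and 19.7 CPM (log2 fold change 1.04, SE 0.14, edgeR adjusted p = 0.0039). In each of these 4 genes M8.1 was the highest liver, and M6.1, M6.3 and M8.2 lay closer together. Ddx60, a helicase that assists RIG-I-like sensors and was picked after its values were seen, rose from 5.83, 6.04, 7.34 and 7.46 CPM to 15.6, 11.3, 20.8 and 16.3 CPM (log2 fold change 1.26, SE 0.15, edgeR adjusted p = 0.0024). Ifi27l2b, of a small family of interferon-induced proteins, rose 8.27-fold (2.55 to 4.399 CPM on the LFD and 13.1 to 36.9 CPM on the HFD). In MHC class I presentation 2 of 10 genes rose, H2-D1 (log2 fold change 0.40, edgeR adjusted p = 0.049; 0.24 without the M8 pair) and B2m (log2 fold change 0.30, edgeR adjusted p = 0.041), whereas 0 of 10 MHC class II genes was called.

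Promoter sequences are shown for 3 of these genes because many members of the list share a short motif. The windows are the 250 bases before the RefSeq start on GRCm38.p6. They run 5′ to 3′ on the gene's strand, and capitals mark each place where GAAA is followed, after any 2 bases, by a second GAAA, or, on the other strand, TTTC by a second TTTC, the core of the interferon-stimulated response element. The regions are chr19:34640639-34640888, plus strand for Ifit1, chr12:26456453-26456702, minus strand for Rsad2, and chr3:142559794-142560043, plus strand for Gbp3.
Ifit1: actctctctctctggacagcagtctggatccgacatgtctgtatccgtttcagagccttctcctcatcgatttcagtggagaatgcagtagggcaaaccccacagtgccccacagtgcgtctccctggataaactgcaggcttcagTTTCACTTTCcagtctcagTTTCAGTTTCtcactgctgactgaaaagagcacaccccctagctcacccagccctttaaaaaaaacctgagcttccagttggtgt
Rsad2: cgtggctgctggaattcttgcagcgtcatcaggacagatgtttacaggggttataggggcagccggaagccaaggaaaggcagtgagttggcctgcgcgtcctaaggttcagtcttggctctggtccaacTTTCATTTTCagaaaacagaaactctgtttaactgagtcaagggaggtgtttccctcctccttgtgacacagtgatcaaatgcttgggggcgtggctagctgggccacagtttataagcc
Gbp3: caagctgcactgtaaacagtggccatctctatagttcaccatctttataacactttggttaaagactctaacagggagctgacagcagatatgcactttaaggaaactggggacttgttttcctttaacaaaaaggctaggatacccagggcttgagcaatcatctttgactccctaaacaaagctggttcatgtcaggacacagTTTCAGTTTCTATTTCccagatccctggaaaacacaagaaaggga
Ifit1 holds 2 matches, the first starting 104 bases before the RefSeq start. Rsad2 holds 1 at 120 bases, and Gbp3 holds 2 overlapping matches, the first at 45 bases. The window of another RefSeq start of Gbp3 (chr3:142560106-142560355), not shown, held 0. In windows of 300 bases, which add the 50 bases after the start, 21 of the 35 list genes with a RefSeq window (60%) held the motif. The share was 1079 of 27025 genes (3.99%) over all windows and 441 of 11358 (3.88%) over the genes tested. It was 15 of 22 (68.2%) among the list genes that rose and 6 of 13 (46.2%) among those not called. These are matches of letters and no measurement of binding.

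Matrix genes had their highest levels in M8.2. Of 33 collagen genes 14 rose (42.4%) and 2 fell (6.06%), against 6.19% and 4.01% of all genes. Their median log2 fold change was 0.85 (0.37 without the M8 pair). Of 35 other matrix proteins and remodelling enzymes 23 rose and none fell, with medians of 1.30 and 0.83. Summed levels overlapped between the diets. They were 1609 to 1777 CPM on the LFD and 1691 to 2364 CPM on the HFD for the collagens. For the other list they were 3595 to 3737 CPM and 3391 to 4034 CPM. That sum rests mostly on Fn1, fibronectin, which was not called (means 3087 and 2692 CPM; log2 fold change -0.20, edgeR adjusted p = 0.14). Col1a1 (chromosome 11, 94936224 to 94953042, plus strand, mm10), a chain of the fibrillar collagen of scars, was at 11.1, 7.41, 7.91 and 15.98 CPM on the LFD and 28.2, 79.4, 86.5 and 140.1 CPM on the HFD (log2 fold change 2.98, SE 0.61, edgeR adjusted p = 0.011). The fold was 7.88, and M6.1 was the lowest HFD liver by a wide margin. Col3a1 rose from 28.5, 19.8, 28.6 and 44.9 CPM to 70.6, 162, 169 and 263 CPM (log2 fold change 2.45, SE 0.48, edgeR adjusted p = 0.0096), and Col5a2, which regulates fibril diameter, from 2.35, 1.69, 2.8996 and 3.903 CPM to 5.36, 11.6, 12.3 and 21.2 CPM (log2 fold change 2.22, SE 0.45, edgeR adjusted p = 0.011). Col12a1, a fibril-associated collagen, rose by 1.56 on the log2 scale. Col18a1, a basement membrane collagen that hepatocytes express, fell slightly, from 1261, 1392, 1300.1 and 1323 CPM to 1173, 1102, 990.1 and 967 CPM (log2 fold change -0.32, SE 0.08, edgeR adjusted p = 0.023; -0.20 without the M8 pair). Lox, which cross-links collagen, was at 0.385, 0.114, 0.347 and 0.453 CPM and 0.851, 2.19, 1.53 and 3.39 CPM (log2 fold change 2.61, SE 0.47, edgeR adjusted p = 0.0071), and Vcan, a large proteoglycan of provisional matrix, at 0.121, 0.0684, 0.198 and 0.129 CPM and 0.6903, 1.09, 1.06 and 2.31 CPM (log2 fold change 3.31, SE 0.50, edgeR adjusted p = 0.0043). Mmp13, a collagenase, was at 0.223, 0.205, 0.248 and 0.151 CPM and 0.414, 1.28, 1.93 and 2.45 CPM (log2 fold change 2.87, SE 0.56, edgeR adjusted p = 0.0096). Expression of these 3 genes was low in absolute terms and highest in M8.2. The gelatinase Mmp2 and the matricellular protein Thbs2 had log2 fold changes of 1.34 and 1.32, and 0.86 and 0.89 without the M8 pair.

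Genes of signals and cells that accompany matrix deposition were called less often than the matrix genes. Of 17 fibrogenic ligands and receptors 5 rose, and all 17 estimates were above 0 (14 without the M8 pair). Spp1, the cytokine osteopontin, was at 22.8, 28.3, 24.5 and 36.2 CPM and 46.97, 42.2, 93.7 and 142 CPM (log2 fold change 1.54, SE 0.35, edgeR adjusted p = 0.017; 0.69 without the M8 pair). Tgfb2 and Lgals3, the lectin galectin-3, rose with overlap because M6.1 lay within the LFD range (0.621, 1.96, 1.65 and 2.38 CPM and 3.54, 11.4, 12.7 and 19.2 CPM on the HFD; log2 fold changes 1.23 and 1.53, and 0.90 and 0.89 without the M8 pair). Edn1, the vasoconstrictor endothelin-1, had a single high liver, M8.2 (0.391, 0.587, 0.472 and 2.41 CPM against 0.202, 0.114, 0.273 and 0.4097 CPM; log2 fold change 1.95, edgeR adjusted p = 0.042), and 0.98 on the log2 scale without the M8 pair. The fifth was Pdgfrb, the receptor by which stellate cells respond to platelet-derived growth factor (11.1, 9.26, 11.2 and 15.8 CPM and 14.5, 21.2, 20.6 and 39.03 CPM; log2 fold change 1.01, edgeR adjusted p = 0.044; 0.61 without the M8 pair). Of 12 stellate cell markers 4 rose, Colec11, Pdgfrb, Rgs5 and Dcn, by 0.76, 1.01, 0.90 and 0.68 on the log2 scale. All 12 estimates were above 0 (11 without the M8 pair). The summed level of the 12 was 347 to 518 CPM in the LFD mice and 455 to 923 CPM in the HFD mice, lowest in M6.1 and highest in M8.2 among HFD mice. Of 6 smooth muscle and myofibroblast markers Tagln rose (log2 fold change 0.92, edgeR adjusted p = 0.031; 0.59 without the M8 pair). Estimates were above 0 in 3 of these 6 markers. The part of stellate cell number in the matrix values was not tested.

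None of 12 Kupffer cell markers, genes of the resident liver macrophages, was called, and their summed level was 305 to 560.1 CPM in the LFD mice and 285 to 792 CPM in the HFD mice. Their median log2 fold change was 0.26 (-0.14 without the M8 pair), with 9 of 12 estimates above 0 (2 of 12 without that pair). Of 10 monocyte-derived macrophage markers 5 rose, with a summed level of 39.4 to 82.9 CPM in the LFD mice and 42.9 to 184 CPM in the HFD mice and a median log2 fold change of 1.17 (0.48 without the M8 pair). Both lists were lowest in M6.1 and highest in M8.2 among the HFD livers, and the difference between the lists was not tested. Of 18 genes of lipid-associated macrophages 7 rose (38.9%) and 1 fell (5.56%), against 6.19% and 4.01% of all genes. Their median log2 fold change was 1.19 (0.65 without the M8 pair). Trem2, a lipid-sensing receptor that defines the latter cells, was at 0.405, 0.137, 0.0991 and 0.453 CPM on the LFD and 0.4602, 1.34, 2.36 and 2.17 CPM on the HFD (log2 fold change 2.503, SE 0.68, edgeR adjusted p = 0.032). M6.1 hardly exceeded the highest LFD liver. Mmp12, the macrophage elastase, was at 0.729, 0.639, 1.61 and 2.61 CPM and 2.74, 7.69, 8.72 and 26.1 CPM (log2 fold change 3.02, SE 0.81, edgeR adjusted p = 0.031), with M6.1 again the lowest HFD liver. Cd63, a lysosomal tetraspanin, rose from 2.87, 2.14, 2.503 and 4.51 CPM to 5.22, 7.49, 10.3 and 22.1 CPM (log2 fold change 1.91, SE 0.46, edgeR adjusted p = 0.021). Without the M8 pair Mmp12 was at 1.92 and Cd63 at 1.09 on the log2 scale. Fabp5 was the 1 member that fell. Cx3cr1, the fractalkine receptor of monocytes, rose from 1.17, 1.07, 0.818 and 1.42 CPM to 2.42, 4.31, 7.41 and 7.89 CPM (log2 fold change 2.29, SE 0.49, edgeR adjusted p = 0.013). Ccr2, the receptor for Ccl2, was at 2.17, 1.004, 2.01 and 3.02 CPM and 3.36, 4.54, 7.56 and 10.3 CPM (log2 fold change 1.65, SE 0.44, edgeR adjusted p = 0.031; 0.96 without the M8 pair). Itgax, the integrin CD11c, and Chil3, a chitinase-like protein, had log2 fold changes of 1.77 and 3.59, against 0.91 and 2.77 without the M8 pair. Chil3 did not pass 1.54 CPM in any liver. Of 31 chemokines and receptors 9 rose (29.0%) and 2 fell (6.45%), against 6.19% and 4.01% of all genes. Ccl2, which recruits monocytes, was at 0.546, 0.456, 0.669 and 0.496 CPM and 0.966, 1.64, 1.69 and 1.92 CPM (log2 fold change 1.52, SE 0.35, edgeR adjusted p = 0.018), and Cxcl10, an interferon-inducible chemokine, at 2.45, 1.32, 2.48 and 2.31 CPM and 3.89, 5.02, 7.94 and 5.89 CPM (log2 fold change 1.41, SE 0.32, edgeR adjusted p = 0.016). Ccr1 rose by 2.14 on the log2 scale.

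Of 33 Toll-like receptor and NF-κB genes 7 rose and none fell. Tlr5, the receptor for flagellin, was at 12.5, 10.8, 12.6 and 13.3 CPM and 22.5, 21.8, 26.4 and 20.5 CPM (log2 fold change 0.89, SE 0.16, edgeR adjusted p = 0.0065), and Tlr12, a receptor for a parasite protein, at 8.78, 5.98, 6.02 and 7.25 CPM and 18.6, 21.7, 24.5 and 22.8 CPM (log2 fold change 1.64, SE 0.33, edgeR adjusted p = 0.011). Both were nearly as high in the M6 pair as in the M8 pair, with log2 fold changes of 0.86 and 1.54 without the latter. Tnfaip3, a feedback inhibitor of NF-κB, rose from 3.54, 2.71, 3.52 and 4.55 CPM to 5.82, 5.85, 9.84 and 9.33 CPM (log2 fold change 1.11, SE 0.26, edgeR adjusted p = 0.02; 0.72 without the M8 pair). Tlr2, a receptor for bacterial lipoproteins, rose mainly in the M8 pair (2.47, 2.39, 3.62 and 2.72 CPM and 3.41, 4.64, 6.798 and 9.41 CPM; log2 fold change 1.12, edgeR adjusted p = 0.024; 0.54 without the M8 pair). Among the other immune cell lists no member was called of 4 neutrophil, 8 dendritic cell, 18 T and natural killer cell or 10 B cell markers. The summed level of the monocyte-derived markers was 42.9, 92.4, 103 and 184 CPM in the 4 HFD livers, and the part of macrophage number in the chemokine and receptor values was not tested. Of 12 plasma cell markers 2 fell, the immunoglobulin constant genes Ighg2c (10.3, 0.707, 0.768 and 1.42 CPM and 0.207, 0.283, 0.118 and 0.681 CPM; log2 fold change -3.32, edgeR adjusted p = 0.027) and Igha (log2 fold change -1.66, edgeR adjusted p = 0.027).

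Of 47 genes of the cell cycle and of chromosome segregation 32 rose, 1 fell and 14 were not called, and the HFD livers lay wholly above in 33. The median log2 fold change was 1.51, and 0.96 without the M8 pair. The summed level, which rests on the most abundant members, overlapped at 177 to 247 CPM in the LFD mice and 236 to 351 CPM in the HFD mice, with M6.1 (243 CPM) and M6.3 (236 CPM) below the LFD liver M7.1 (247 CPM). Top2a, the topoisomerase of replicating chromosomes, was at 1.66, 0.775, 1.34 and 2.03 CPM on the LFD and 4.97, 3.73, 10.02 and 8.77 CPM on the HFD (log2 fold change 2.24, SE 0.43, edgeR adjusted p = 0.0094). Cdc20, an activator of the anaphase-promoting complex, was at 0.729, 0.274, 0.273 and 0.474 CPM and 2.002, 1.38, 3.65 and 2.39 CPM (log2 fold change 2.41, SE 0.46, edgeR adjusted p = 0.0094). Cenpe, a kinetochore motor, and Prc1, a midzone microtubule bundler, rose 4.97-fold and 4.54-fold. In each of the 4 genes M8.1 was the highest liver and M6.3 the lowest of the HFD group. Cdk1, the mitotic kinase, rose from 0.911, 0.661, 0.372 and 0.69 CPM to 1.66, 1.64, 3.58 and 2.72 CPM (log2 fold change 1.86, SE 0.41, edgeR adjusted p = 0.015), and Kntc1 and Cdca8, components of the kinetochore and of the chromosomal passenger complex, by 2.55 and 1.15 on the log2 scale. The 1 gene that fell, Tk1, a thymidine kinase named after its values were seen, was at 16.2, 18.8, 11.9 and 9.03 CPM and 6.098, 7.65, 8.06 and 6.899 CPM (log2 fold change -0.96, SE 0.23, edgeR adjusted p = 0.019). In the LFD livers Top2a, Cdc20, Cenpe, Prc1, Cdk1, Kntc1 and Cdca8 did not pass 2.03 CPM, so these folds rest on low levels.

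Promoters of 2 of these genes are shown because the cell cycle homology region, here searched as TTTGAA and its reverse complement TTCAAA, was frequent in the list. The windows again cover the 250 bases before the RefSeq start on GRCm38.p6, 5′ to 3′ on the gene's strand, with matches in capitals. They lie at chr4:118437344-118437593, minus strand for Cdc20 and at chr11:99024190-99024439, minus strand for Top2a.
Cdc20: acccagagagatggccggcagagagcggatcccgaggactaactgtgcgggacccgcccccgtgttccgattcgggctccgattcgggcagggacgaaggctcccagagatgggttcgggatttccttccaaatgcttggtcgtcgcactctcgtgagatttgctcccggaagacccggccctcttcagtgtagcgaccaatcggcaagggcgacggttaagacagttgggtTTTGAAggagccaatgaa
Top2a: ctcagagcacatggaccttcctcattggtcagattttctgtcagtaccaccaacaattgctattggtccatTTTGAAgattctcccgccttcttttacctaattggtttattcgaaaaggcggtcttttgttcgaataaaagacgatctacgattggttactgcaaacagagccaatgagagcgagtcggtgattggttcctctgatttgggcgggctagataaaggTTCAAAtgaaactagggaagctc
The match in Cdc20 begins 18 bases before the RefSeq start, and Top2a has 2 matches, the first 179 bases before its RefSeq start. Prc1 and Cenpe were searched too and are not shown. Cenpe held 0 matches (chr3:135212313-135212562). Prc1 held 1 in the window chr7:80294226-80294475 and 0 whole matches in that of another start (chr7:80294201-80294450). Within the windows of 300 bases 20 of 37 list genes (54.1%) held TTTGAA on either strand, against 20.2% of all RefSeq genes and 15% of the genes tested. The share was 17 of 24 (70.8%) among the genes that rose and 3 of 12 (25%) among those not called. The CCAAT box, searched on both strands as CCAAT, stood in 28 of 37 (75.7%), against 42.6% of the genes tested. The searches were made separately and a base may belong to more than 1 match.

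Of 16 p53 targets and cell cycle inhibitors 7 rose and none fell, with a median log2 fold change of 0.45, and 0.46 without the M8 pair. Cdkn1a, the inhibitor p21, was at 4.13, 2.6, 5.45 and 4.61 CPM on the LFD and 13.8, 16.4, 19.3 and 21.6 CPM on the HFD (log2 fold change 2.08, SE 0.42, edgeR adjusted p = 0.011). Eda2r, a receptor and p53 target, rose from 1.13, 0.935, 1.26 and 1.0997 CPM to 4.004, 6.01, 3.399 and 6.305 CPM (log2 fold change 2.15, SE 0.43, edgeR adjusted p = 0.011). Ccng1, cyclin G1, rose from 41.4, 42.7, 39.9 and 45.6 CPM to 63.99, 68.4, 66.998 and 60.8 CPM (log2 fold change 0.62, SE 0.12, edgeR adjusted p = 0.0094). For Eda2r and Ccng1 the M6 and M8 pairs overlapped. The log2 fold changes without the M8 pair were 1.86 for Cdkn1a, 2.19 for Eda2r and 0.66 for Ccng1. Gdf15, a stress-induced hormone that lowers appetite, rose from 2.81, 1.004, 1.98 and 2.72 CPM to 7.23, 7.27, 6.66 and 10.4 CPM (log2 fold change 1.89, SE 0.39, edgeR adjusted p = 0.012). It was the 1 gene of 31 in the unfolded protein and integrated stress response list that rose, beside 1 that fell (3.23% each, below the shares over all genes). Of 14 immediate early genes, which respond within minutes to growth signals and stress, 4 rose. Fos was at 0.627, 0.593, 0.421 and 0.755 CPM and 2.32, 1.701, 2.16 and 2.36 CPM (log2 fold change 1.82, SE 0.38, edgeR adjusted p = 0.012), Jun at 11.7, 10.97, 14.8 and 12.2 CPM and 26.7, 29.4, 40.5 and 36.8 CPM (log2 fold change 1.43, SE 0.30, edgeR adjusted p = 0.012) and Atf3 at 1.15, 0.981, 1.49 and 1.53 CPM and 3.27, 4.25, 5.91 and 6.11 CPM (log2 fold change 1.92, SE 0.42, edgeR adjusted p = 0.015). Fosb rose by 1.95 on the log2 scale.

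Secreted plasma proteins moved in both directions. Of 28 acute phase genes 7 rose and 4 fell. Lcn2, the siderophore-binding protein lipocalin-2, was at 4.05, 2.53, 2.45 and 5.97 CPM on the LFD and 16.9, 47.9, 55.2 and 74.8 CPM on the HFD (log2 fold change 3.69, SE 0.69, edgeR adjusted p = 0.0086). M6.1 was again the lowest HFD liver. Hp, haptoglobin, rose from 1856, 1703, 1533 and 1446 CPM to 2334, 2669.6, 3101 and 3129 CPM (log2 fold change 0.78, SE 0.14, edgeR adjusted p = 0.0066). The fibrinogen chains fell together, with Fga at 5589, 5670.0, 6011 and 5617 CPM and 4164, 3725, 2437 and 3298 CPM (log2 fold change -0.75, SE 0.17, edgeR adjusted p = 0.017) and Fgb at -0.76 on the log2 scale. Hamp, the iron hormone hepcidin, fell from 893, 749, 478 and 332 CPM to 113, 274, 80.1 and 185 CPM (log2 fold change -1.91, SE 0.47, edgeR adjusted p = 0.023). In sphingolipid and ganglioside metabolism 5 of 37 genes rose (13.5%) and 2 fell (5.41%), against 6.19% and 4.01% of all genes. Smpd3, a neutral sphingomyelinase that yields ceramide, rose 6.89-fold, from 1.21, 2.99, 1.39 and 3.21 CPM to 9.204, 9.44, 20.2 and 21.9 CPM (log2 fold change 2.79, SE 0.53, edgeR adjusted p = 0.009). Hexa, which encodes a lysosomal enzyme of ganglioside breakdown, rose from 33.9, 36.6, 35.4 and 42.6 CPM to 61.1, 62.8, 77.5 and 80.7 CPM (log2 fold change 0.93, SE 0.17, edgeR adjusted p = 0.0079). Psap, the precursor of the saposins, rose (log2 fold change 0.56, edgeR adjusted p = 0.018), and so did the sialidase Neu2 (log2 fold change 0.79, edgeR adjusted p = 0.04). Gm2a, the activator that presents GM2 ganglioside for breakdown, fell from 142, 161, 137 and 139 CPM to 115, 92.3, 88.02 and 89.8 CPM (log2 fold change -0.59, SE 0.09, edgeR adjusted p = 0.0043), and Galc, the galactosylceramidase, by 0.57 on the log2 scale. In all, 12 of the 55 lists had no member called, the 19 circadian clock genes and the 14 sinusoidal endothelial markers among them. Xdh, xanthine dehydrogenase, was not called (log2 fold change 0.19, edgeR adjusted p = 0.18). One list holds genes that the study names in describing males on the HFD. The study describes some of the genes it names, Xdh among them, as unchanged. Of the 48 members of this list 20 rose and 2 fell. The list was drawn from these samples, and its count is no independent evidence. The count also does not show agreement in direction. The study describes Lpl as lower and Acsl1 and Acaa2 as higher on the HFD. The estimates for these genes here had the opposite sign, and none of them was called.

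The 4 HFD mice differed from each other along more than one axis. The median of log2(CPM + 0.5) over the genes called higher, taken relative to the LFD mean, was 0.49 in M6.1, 0.62 in M6.3, 0.87 in M8.1 and 0.96 in M8.2. Over the genes called lower it was -0.38, -0.38, -0.53 and -0.56. Matrix genes (0.41 in M6.1 and 1.57 in M8.2), stellate cell markers (0.18 and 1.18) and lipid-associated macrophage genes (0.04 and 1.63) had their lowest value in M6.1 and their highest in M8.2. Interferon-stimulated genes and cell cycle genes peaked in M8.1, at 1.40 and 1.42. Mitochondrial fatty acid oxidation, at 0.41, and cholesterol synthesis, at 0.70, were highest in M6.1 instead. Ribosomal protein genes stayed within -0.48 and -0.30 in all 4. Male-biased genes were at -0.75 and -0.56 in the M6 pair and at -1.74 and -2.08 in the M8 pair, and the LFD liver M9.2 was also low at -0.68.

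**Figure D4:**
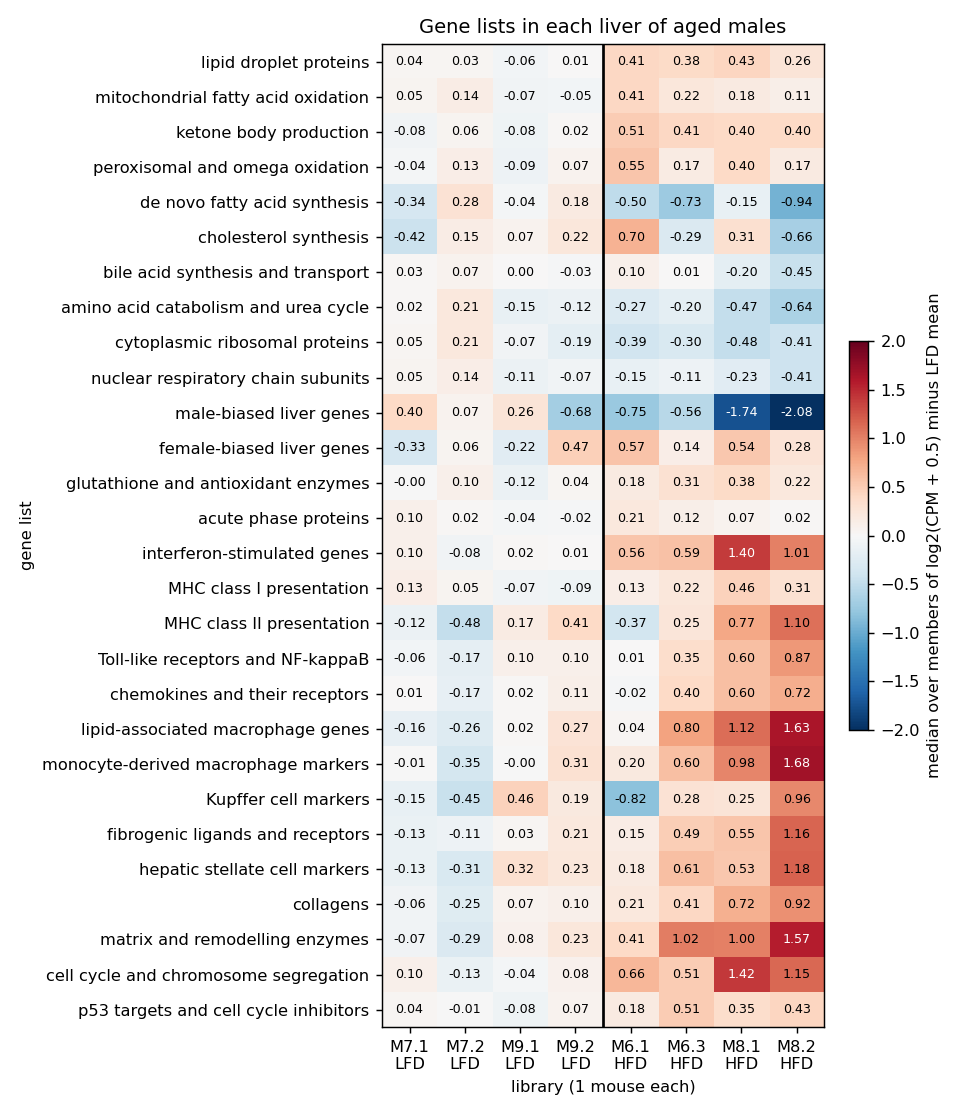
Median over the members of each gene list of log2(CPM + 0.5) minus the mean of the LFD mice (color scale and printed values, log2 units), for each aged male liver (columns). Among the HFD livers the matrix, stellate cell and macrophage lists are lowest in M6.1 and highest in M8.2 (0.41 and 1.57 for matrix), while fatty acid oxidation is highest in M6.1 (0.41).

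In the comparison of ages no gene passed the test for a different response in aged and young males (0 of 16077, 0%, edgeR adjusted p under 0.05), while 1297 had an unadjusted p under 0.05. The edgeR likelihood ratio test called 27 genes and DESeq2 called 49. List medians on the log2 scale were 1.51 in aged and 1.45 in young males for cell cycle genes, and -0.40 and -0.44 for ribosomal protein genes. Interferon-stimulated genes had 0.97 in aged and 0.05 in young males. Of the 46 genes 43 had a larger estimate in aged males and 30 (65.2%, against 8.07% of all genes) an unadjusted p under 0.05, with a smallest edgeR adjusted p of 0.36. The likelihood ratio test called 8 of them and DESeq2 9. Without the M8 pair 16 kept an unadjusted p under 0.05. Ifit1 in young males was at 8.77 CPM on the LFD and 12.8 CPM on the HFD on average (interaction 1.55, SE 0.34, edgeR adjusted p = 0.36). Gbp3 there was at 8.71 CPM on the LFD and 9.602 CPM on the HFD (interaction 1.63, SE 0.38, edgeR adjusted p = 0.36), and Ddx60 at 8.01 CPM on the LFD and 8.23 CPM on the HFD (interaction 1.22, SE 0.21, edgeR adjusted p = 0.32). The differences were thus large for these genes but not past the adjusted threshold of the quasi-likelihood test. Amino acid catabolism had medians of -0.40 in aged and 0.05 in young males, with 14 of 34 interactions at an unadjusted p under 0.05 and none without the M8 pair. Matrix genes had 1.30 and 0.49, with 8 of 35, a share above the 8.07% of all genes. Male-biased genes had -1.18 and -0.29, with 1 of 23, a share below it. Lipid droplet genes had 0.42 and 0.44, with 5 of 22 (22.7%). Among them Cidec (2.44 and 4.43) and Cidea (1.56 and 4.24) had larger estimates in young males, and neither interaction passed. Clstn3 and Fitm1, which the study names for droplets, did pass in the other 2 tests. Their interactions by the likelihood ratio test were -1.52 and -1.33 (edgeR likelihood ratio adjusted p = 0.0086 for each). DESeq2 gave -1.51 and -1.32 (DESeq2 adjusted p = 0.0079 for each), so the response was smaller in aged males by these tests.

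**Figure D5:**
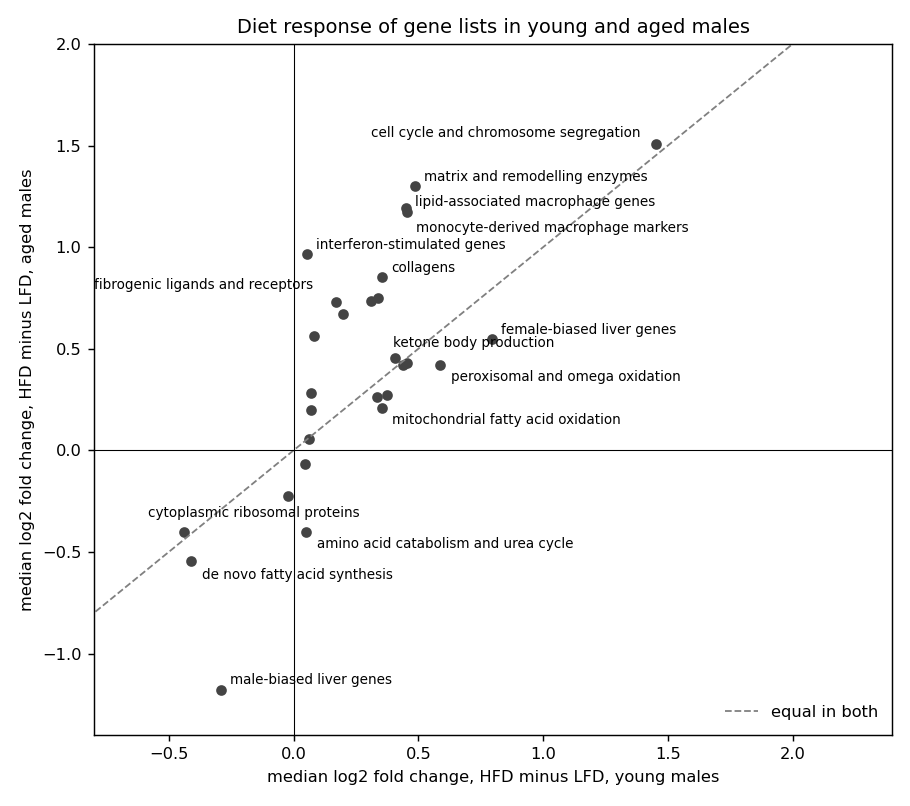
Median log2 fold change, HFD minus LFD, of each gene list in young males (horizontal axis) and in aged males (vertical axis), 1 point per list, with a dashed line where both are equal. Cell cycle and ribosomal protein genes lie near the line, and interferon-stimulated genes lie at 0.05 in young and 0.97 in aged males.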

How the data were processed

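Libraries were prepared from the poly(A) RNA of 1 liver per mouse (KAPA mRNA HyperPrep) and read from both ends on an Illumina NovaSeq. Per the labels and the study's methods, the authors used STAR for alignment to mm10, dropped reads that mapped to several places, counted with featureCounts and tested with edgeR. The sources used here give no versions, annotation or strand setting, so overlapping antisense genes cannot be told apart. The deposited table held raw counts per gene for 16 male libraries and 16079 genes. The columns of fold changes and p-values beside them hold the authors' own comparisons and were not used, and female libraries were not analysed here.

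Counts were tested in R 4.3.3 with edgeR 4.0.16, TMM scaling and quasi-likelihood F tests in 1 fit of 4 groups (diet by starting age, 4 mice each), which share 1 estimate of the spread. The filter of more than 10 counts in at least 2 of the 16 libraries that the methods name was applied again and left 16077 genes. Genes were called at a Benjamini-Hochberg adjusted p under 0.05, and the same fit gave the age-by-diet interaction. Alternatives were the likelihood ratio test, DESeq2 1.42.0, limma 3.58.1 voom with quality weights, RLE scaling, other filters, a fit of the 8 aged libraries, and fits without single libraries or pairs. No libraries of a group were alike within counting error (chi-square per gene of at least 40.3). The scripts were tested on simulated data. The p-values measure the spread between the mice of these groups.

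Gene lists (55), members and tests were chosen with earlier results of these data known. Named are the genes the study names for males, the 15 largest increases and decreases among called genes with separated groups and a mean of at least 1 CPM, and up to 4 members per described list with the smallest p and up to 2 with the highest level. The other named genes are said to be picked after their values were seen. Some genes that the rule names are not reported here. List medians are over tested members. Promoter windows came from RefSeq on GRCm38.p6, matched by symbol.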

Additional observations from a re-analysis of the deposited data

Results flagged for a closer look

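In 22 of 334 groups of 4 mice, over 167 genes and both diets, 1 mouse lay far from the other 3 by Dixon's test, which chance alone does in about 1 group in 20. On the LFD, M7.2 stood apart as the highest liver for Alb (87694 CPM), Ass1 (3959 CPM), Got1 (385 CPM) and Cnmd (7.73 CPM) and as the lowest for Cxcl10 (1.32 CPM). M7.1 was the lowest for Acss2 (294 CPM), which supplies acetyl-CoA from acetate, and the highest for Ighg2c (10.3 CPM) and Lrp2 (6.54 CPM). M9.2 was the highest for the female-biased genes Cyp2b13 (0.539 CPM) and Slc22a27 (6.77 CPM) and for Tgfb2 (0.992 CPM), and M9.1 was the highest for Srgap3 (12.4 CPM).

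On the HFD, M8.2 was the highest liver for Edn1 (2.41 CPM), Gdf15 (10.4 CPM) and Igha (1.17 CPM) and the lowest for Atp5g1 (42.6 CPM), Cabyr (0.419 CPM) and Pemt (101.0 CPM). M8.1 was the highest for Pex11a (168 CPM). M6.1 was the lowest for Cidea (9.02 CPM) and the highest for Gm2a (115 CPM), and M6.3 was the highest for Gls2 (240.2 CPM).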

How the results depend on the processing

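No gene called for diet changed sign under any alternative in which it had a value, while the median of the Kupffer cell markers, none of them called, went from 0.26 to -0.14 without the M8 pair. The alternatives reuse libraries that made the calls, so kept signs follow in part from that selection. The number of genes called for diet was 1640. It was 1554 with a filter of 1 CPM in 4 libraries, 1627 with RLE scaling, 1640 with no filter, 2112 by the likelihood ratio test, 2272 by voom with quality weights, 2473 by DESeq2 and 1340 in a fit of the 8 aged libraries alone. Leaving out single libraries gave between 423 and 2376 genes, the lowest without M8.1, then 464 without M8.2, 560 without M7.2 and 704 without M9.1. Leaving out pairs gave 2 genes without M8.1 and M8.2, 195 without M7.1 and M7.2, 1255 without M9.1 and M9.2 and 2565 without M6.1 and M6.3. Without M9.1 and M9.2 the share of calls that were higher was 51.4%, against 60.7%. Fits without a pair hold fewer mice, and further causes of the changes were not tested. Of the 153 named genes that were called, 2 stayed past the threshold without the M8 pair, 19 without the M7 pair, 93 without the M9 pair and 137 without the M6 pair, and no sign changed.

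The age-by-diet interaction gave 0 genes, against 27 by the likelihood ratio test, 49 by DESeq2, 22 without M6.1 and M6.3, and 0 to 2 when single libraries were left out. No paired analysis was possible because the replicate numbers only name the libraries in order and the mice on different diets share no animal or stated batch. With 4 mice per diet, changes under 2-fold in genes that vary between mice may be missed, and low genes such as those under 1 CPM carry the largest error.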
